A study of Mus musculus with 12 samples.

Results

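The mature strands of miR-7 and miR-671, the miRNAs tied to the circular RNA Cdr1as and the long noncoding RNA Cyrano, were followed in the mouse hippocampus with and without Gld2. The 7 strands were chosen by name, mmu-miR-7a-5p, mmu-miR-7b-5p, mmu-miR-7a-1-3p, mmu-miR-7a-2-3p, mmu-miR-7b-3p, mmu-miR-671-5p and mmu-miR-671-3p (written below without the species prefix), out of 1908 miRNAs in the count table, of which 1325 had at least 1 count. Small RNAs came from 6 Gld2 knockout mice (GLD2KO) and from 6 wild-type mice (WT), 1 library per hippocampal sample. All mice were males of the C57BL/6 background aged 3 months, littermates born to parents heterozygous for Gld2. The knockout is described without a tissue or a promoter that would restrict it. Gld2, also named Tent2, encodes a noncanonical poly(A) polymerase, an enzyme that extends RNAs with adenosines at the 3′ end, and the study asked what it does to miRNAs. The levels of Cdr1as, Cyrano and Gld2 mRNA and the nucleotides added to miRNAs were not analysed here, so the genotypes are as labelled and the values below are relative levels of miRNAs.

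In mammals, miR-7 is a miRNA of neurons and endocrine cells. The circular RNA Cdr1as carries many miR-7 sites, and miR-671-5p pairs with Cdr1as closely enough for Argonaute to cut it. Cyrano holds a site of near-complete pairing to miR-7 that directs the tailing and decay of miR-7, a process named target-directed miRNA degradation. In mice, loss of Cyrano has been described as raising miR-7 in brain, and loss of Cdr1as as lowering miR-7 and raising miR-671-5p. Which enzymes extend a miRNA during such decay is the link between this network and a nucleotidyl transferase such as Gld2.

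The mature sequences are shown because the seed, in capitals (bases 2 to 8 from the 5′ end), sets which strands can share targets, and because reads of near-identical strands may be hard to assign. They are from RefSeq (GRCm38.p6), which held all 7, and are written 5′ to 3′.
miR-7a-5p: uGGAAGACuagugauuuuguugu
miR-7b-5p: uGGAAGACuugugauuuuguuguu
miR-7a-1-3p: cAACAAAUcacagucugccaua
miR-7a-2-3p: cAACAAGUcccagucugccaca
miR-7b-3p: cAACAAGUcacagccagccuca
miR-671-5p: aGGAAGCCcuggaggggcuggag
miR-671-3p: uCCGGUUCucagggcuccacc

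Among the 1603 miRNAs of the table with a sequence, the seed GGAAGAC was held by miR-7a-5p and miR-7b-5p and by no other. These guide strands differed by A10U, counted from the 5′ end with the base of miR-7a-5p first, and by 1 more base at the 3′ end of miR-7b-5p. How reads that match both were assigned is not given in the sources used here, so their separate values are uncertain. Their sum is free of this question only if no read was counted for both strands. That cannot be presumed, since some miRNAs of the table, such as miR-669a-5p and miR-669p-5p, had the same counts in every library. The strand miR-7a-5p is identical in the hairpins Mir7-1 and Mir7-2, so its counts cannot be divided between them. Their passenger strands miR-7a-1-3p and miR-7a-2-3p differ at 3 bases (A7G, A10C and U21C), 1 of them in the seed. The seed of miR-7a-2-3p, AACAAGU, was shared with miR-7b-3p. The seed of miR-671-5p was held by no other miRNA with a sequence, and the same was true of miR-671-3p.

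Mir7-1 lies in an intron of Hnrnpk, which encodes an RNA-binding protein (GRCm38, chromosome 13, 58392779 to 58392886, minus strand). Mir7-2 (chromosome 7, 78888277 to 78888373, plus strand) and Mir7b (chromosome 17, 56242988 to 56243098, plus strand) lie in no annotated gene of their strand. Mir671 (chromosome 5, 24592114 to 24592211, plus strand) overlaps an exon of Chpf2, a gene of chondroitin synthesis. Smarcd3 lies on the opposite strand.

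The target sites are shown because they tie the 3 guide strands to 1 network. Capitals mark bases complementary to the miRNA, and the sites are read 5′ to 3′ from GRCm38 as DNA.
Cyrano site for miR-7a-5p, chr2:119602137-119602161: ACAACAAAATCACcaatGTCTTCCA
Cdr1as site for miR-671-5p, chrX:61186029-61186051: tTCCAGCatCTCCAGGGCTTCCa
A Cdr1as site for miR-7a-5p, chrX:61183669-61183687: ACAAAATtcagGTCTTCCA

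The Cyrano site, in the 8300 bases of transcript 1700020I14Rik-202 (chromosome 2, 119594303 to 119607502), pairs with 21 of the 23 bases of miR-7a-5p, bases 1 to 8 and a run of 13 bases from 11 to 23, with 4 target bases between them. For miR-7b-5p the run was 14 bases and 22 of its 24 bases paired. The transcript held 2 matches to the miR-7 seed, and 48.65% of 1406 other transcripts read over the same length held at least 1, and 15.93% held as many or more. The exon annotated where Cdr1as arises (an exon of C230004F18Rik, opposite Cdr1, chromosome X, 61183248 to 61186174) held 123 matches to the miR-7 seed, GTCTTCC, on its own strand and 0 on the other. Of 25515 other transcripts read over their first 2927 bases, the length of that exon, 23.86% held at least 1 such match and none held more than 4. Beyond the seed match, the longest unbroken pairing to the 3′ part of miR-7a-5p within the 22 bases upstream was at most 7 bases at these matches, with a median of 5. The site shown is 1 of those with the longest run. The miR-671-5p seed match, GGCTTCC, differs from it by 1 letter. It was present 1 time on the exon's strand and 0 times on the other, a count reached by 29.32% of the other transcripts, and 19 of the 23 bases of miR-671-5p pair there without a gap. Such matches are letters in a reference sequence and do not measure binding in these samples.

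Libraries held 2197915 to 2762035 counts in GLD2KO and 2254812 to 3761106 counts in WT. Levels are counts per 1000000 counts of the library (CPM) after scaling by edgeR's TMM factors, which ran from 0.747 to 1.36 over the libraries. The neuronal list (5 of 5 present, miR-124-3p among them) summed to 148478 to 273716 CPM in GLD2KO and 108763 to 361209 CPM in WT. Choroid plexus and cilia markers (9 of 9 present) summed to 1677 to 24201 CPM in GLD2KO, highest in replicate 6, and 1818 to 5542 CPM in WT. Red blood cell markers (2 of 2) ran from 1148 to 24223 CPM in GLD2KO and 652 to 22943 CPM in WT. Epithelial and olfactory markers (5 of 5) ran from 88.2 to 374 CPM in GLD2KO and 39.6 to 182 CPM in WT, and liver and muscle markers (3 of 3) from 103 to 236 CPM in GLD2KO and 112 to 231 CPM in WT. Oligodendrocyte markers (3 of 3) ran from 9309 to 30583 CPM in GLD2KO and 8810 to 40409 CPM in WT. No list had a member at 0 in all libraries. GLD2KO replicates 4 and 1 and WT replicate 3 were least like their own genotype, with median correlations of log2 CPM across miRNAs of 0.902, 0.912 and 0.913, against 0.935 to 0.947 for the other 9 libraries. The fold changes of the guide strands are also given without these libraries.

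All 7 strands passed the filter on low counts, as did 521 miRNAs in all. Of the 7, 0 differed between genotypes at a Benjamini-Hochberg adjusted p under 0.05 (quasi-likelihood test of edgeR), and over all 521 the background was 0%. The guide strands of miR-7 had negative log2 fold changes (GLD2KO minus WT) and miR-671-5p a positive one, all of similar size and none past the adjusted threshold. At an unadjusted p under 0.05 stood 1 of the 7, miR-7b-5p, lower in GLD2KO, where the background was 1.54% of tested miRNAs lower, 3.26% higher and 4.8% in both directions. The groups overlapped for all 7, while 0.576% of tested miRNAs had groups that did not overlap. Over all tested miRNAs the median log2 fold change was 0.12, and 95% confidence intervals had a median half-width of 0.96 (common biological coefficient of variation 0.581), so that changes under about that size were poorly resolved in these 12 libraries. In bulk tissue, fewer cells that hold a miRNA and less of it per cell cannot be told apart.

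**Figure D1:**
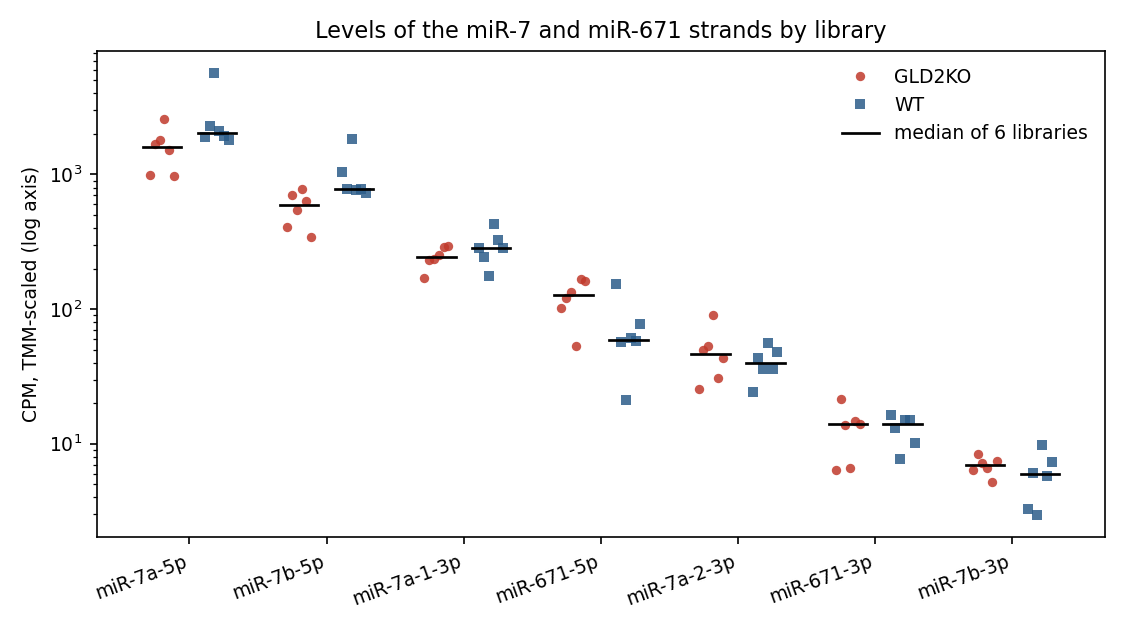
Level of each strand in each library, in TMM-scaled CPM on a log axis, with GLD2KO libraries as circles, WT libraries as squares and the median of 6 as a bar. The strands span from a mean of 2107 CPM for miR-7a-5p to 6.35 CPM for miR-7b-3p, and WT replicate 3 stands above all other libraries for both miR-7 5p strands.

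By mean level over the 12 libraries the order was miR-7a-5p (2107 CPM, rank 50 of the 1325 detected miRNAs), miR-7b-5p (779 CPM, rank 94), miR-7a-1-3p (268 CPM, rank 154), miR-671-5p (97.6 CPM, rank 226), miR-7a-2-3p (44.6 CPM, rank 286), miR-671-3p (12.8 CPM, rank 407) and miR-7b-3p (6.35 CPM, rank 475). Ligation and size selection affect miRNAs differently, so levels of different strands are approximate. Within a library, miR-7a-5p exceeded miR-7b-5p in 12 of 12, at 1.82 to 3.32 times its level, although their ranges over libraries overlapped. The order also held in 12 of 12 libraries between miR-7b-5p and miR-7a-1-3p, between miR-7a-1-3p and miR-671-5p, and between miR-7a-2-3p and miR-671-3p. Between miR-671-5p and miR-7a-2-3p it held in 10 of 12, with GLD2KO replicate 4 and WT replicate 3 the other way round. It also held in 10 of 12 between miR-671-3p and miR-7b-3p, which had equal counts in GLD2KO replicates 1 and 4.

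The guide strand miR-7a-5p was at 992, 1670, 1802, 2588, 1522 and 977 CPM in GLD2KO replicates 1 to 6, and at 1898, 2308, 5688, 2110, 1923 and 1810 CPM in WT replicates 1 to 6. In raw counts this was 2030 to 6761 in GLD2KO and 4646 to 9659 in WT. With TMM scaling, 5 GLD2KO libraries lay under every WT library and replicate 4 lay above all WT libraries but replicate 3, while with CPM from library totals 2 GLD2KO libraries, replicates 1 and 6, lay under every WT library. Means were 1592 ± 598 CPM in GLD2KO and 2623 ± 1512 CPM in WT (SD, n = 6 each), and medians were 1596 CPM in GLD2KO and 2016 CPM in WT. The log2 fold change was -0.72 (SE 0.40, 95% confidence interval -1.56 to 0.12), with an unadjusted p of 0.0880 and an adjusted p of 0.841 in edgeR, rank 52 of 521 by p. It was -0.30 (SE 0.34) without WT replicate 3 and -0.95 (SE 0.43) without GLD2KO replicate 4. Adjusted p values over its 22 alternatives were 0.661 or higher.

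Its close relative miR-7b-5p, with the same seed, was at 409, 708, 547, 780, 633 and 343 CPM in GLD2KO replicates 1 to 6, and at 1045, 778, 1821, 771, 781 and 734 CPM in WT replicates 1 to 6. With TMM scaling, 5 GLD2KO libraries lay under every WT library and replicate 4 overlapped the WT range, while with CPM from library totals 3 lay under every WT library. Means were 570 ± 170 CPM in GLD2KO and 989 ± 423 CPM in WT (SD, n = 6 each). The log2 fold change was -0.79 (SE 0.37, interval -1.56 to -0.02, unadjusted p = 0.0438, edgeR adjusted p = 0.841), rank 22 of 521. Without WT replicate 3 it was -0.49 (SE 0.32, unadjusted p = 0.153 in edgeR), and without GLD2KO replicate 4 it was -0.93 (SE 0.40). The lowest adjusted p over its alternatives was 0.525, in DESeq2.

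A sum over both strands does not depend on how shared reads were divided, provided that none was counted for both, which is not known. Summed in this way, miR-7-5p was at 1402, 2379, 2349, 3368, 2155 and 1319 CPM in GLD2KO replicates 1 to 6. In WT replicates 1 to 6 it was at 2943, 3086, 7509, 2882, 2704 and 2544 CPM. Means were 2162 ± 751 CPM in GLD2KO and 3611 ± 1919 CPM in WT (SD, n = 6 each), a difference of -1449 CPM that was not tested as a sum of chosen strands. Without WT replicate 3 the WT mean was 2832 ± 211 CPM (SD, n = 5) and the difference was -670 CPM. With CPM from library totals the sums were 2260 ± 842 CPM in GLD2KO and 3391 ± 1198 CPM in WT (SD, n = 6 each), and 2938 ± 504 CPM in WT without replicate 3.

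**Figure D2:**
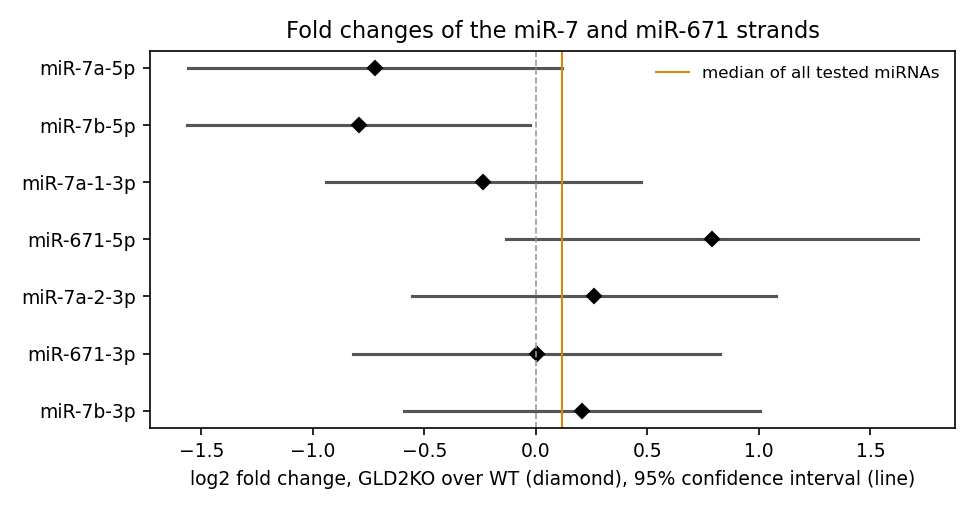
Log2 fold change, GLD2KO over WT, of each strand from edgeR (diamonds) with its 95% confidence interval (lines), and the median of all tested miRNAs at 0.12. The miR-7 5p strands lie at -0.72 and -0.79 and miR-671-5p at 0.79, and the interval of miR-7b-5p alone leaves out 0.

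The balance of the miR-7 guide strands differed between genotypes by less than the spread between libraries. The ratio of miR-7a-5p to miR-7b-5p counts was 2.77 ± 0.45 in GLD2KO and 2.59 ± 0.46 in WT (SD, n = 6 each), ranging from 2.36 to 3.32 in GLD2KO and 1.82 to 3.12 in WT. On the log2 scale the difference was 0.10 (two-sided exact permutation p = 0.519 over all relabellings of the libraries). The strand miR-7a-5p made up 73.2 ± 3.08% of miR-7-5p counts in GLD2KO and 71.7 ± 4.02% in WT. The lowest ratio was that of WT replicate 1.

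The passenger strand miR-7a-1-3p, from the Hnrnpk intron, was at 170, 233, 236, 254, 288 and 296 CPM in GLD2KO replicates 1 to 6, and at 284, 244, 177, 426, 324 and 283 CPM in WT replicates 1 to 6. WT replicate 3, highest in miR-7a-5p, had the lowest level of this strand among WT libraries. Means were 246 ± 45.8 CPM in GLD2KO and 290 ± 83.0 CPM in WT (SD, n = 6 each), which gave -0.23 as the log2 fold change (SE 0.34, adjusted p = 0.978 in edgeR). The other passenger strands had positive log2 fold changes near 0. For miR-7a-2-3p, means were 48.6 ± 23.0 CPM in GLD2KO and 40.5 ± 11.1 CPM in WT (log2 fold change 0.26, SE 0.39), and the highest library was GLD2KO replicate 4 at 90.2 CPM, without which the log2 fold change was 0.01. For miR-7b-3p, with 13 to 27 counts in GLD2KO and 5 to 34 in WT, means were 6.85 ± 1.07 CPM in GLD2KO and 5.85 ± 2.55 CPM in WT (log2 fold change 0.21, SE 0.38). At such counts the sampling of reads alone limits each library's value. The ratio of miR-7a-1-3p to miR-7a-2-3p, the passenger strands of the Mir7-1 and Mir7-2 hairpins, was 5.80 ± 2.30 in GLD2KO and 7.44 ± 2.56 in WT. Whether it follows the output of the hairpins was not tested.

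The strand that guides the cutting of Cdr1as, miR-671-5p, was at 103, 122, 133, 53.6, 168 and 163 CPM in GLD2KO replicates 1 to 6, and at 154, 57.3, 21.2, 61.3, 57.5 and 78.1 CPM in WT replicates 1 to 6. The lowest GLD2KO library was replicate 4 and the highest WT library replicate 1, and the groups overlapped. With CPM from library totals, 4 GLD2KO libraries lay above every WT library, and replicates 1 and 4 did not. In counts the range was 113 to 499 in GLD2KO and 36 to 376 in WT. Means were 124 ± 42.4 CPM in GLD2KO and 71.5 ± 44.3 CPM in WT (SD, n = 6 each). The log2 fold change was 0.79 (SE 0.44, interval -0.13 to 1.71, unadjusted p = 0.0894, edgeR adjusted p = 0.841), rank 53 of 521. Without WT replicate 1 it was 1.17 (SE 0.43, unadjusted p = 0.0148 in edgeR, adjusted p = 0.716), without GLD2KO replicate 4 it was 0.99 (SE 0.41, unadjusted p = 0.0280 in edgeR), and without WT replicate 3 it was 0.67 (SE 0.41). Over its 22 alternatives the adjusted p was 0.676 or higher.

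Its partner miR-671-3p, from the other arm of the hairpin, was at 6.36, 21.5, 13.9, 6.64, 14.7 and 14.0 CPM in GLD2KO replicates 1 to 6, and at 16.3, 13.0, 7.65, 14.9, 15.03 and 10.04 CPM in WT replicates 1 to 6. Means were 12.84 ± 5.69 CPM in GLD2KO and 12.83 ± 3.35 CPM in WT (SD, n = 6 each). The log2 fold change was 0.00 (SE 0.39, interval -0.82 to 0.83, edgeR adjusted p = 0.994), and its sign changed in 10 of 22 alternatives. A p of that size does not show equal levels, since the interval reaches from -0.82 to 0.83 on the log2 scale.

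Leaving out 1 library at a time moved the 3 guide strands most through WT replicate 3, for both miR-7 strands, and WT replicate 1, for miR-671-5p. Without WT replicate 3, GLD2KO replicate 1 and GLD2KO replicate 4 together, an alternative added after seeing the data, log2 fold changes were -0.37 for miR-7a-5p, -0.50 for miR-7b-5p and 0.91 for miR-671-5p. Over all 22 alternatives the sign of these 3 held and 0 adjusted p values passed the threshold.

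**Figure D3:**
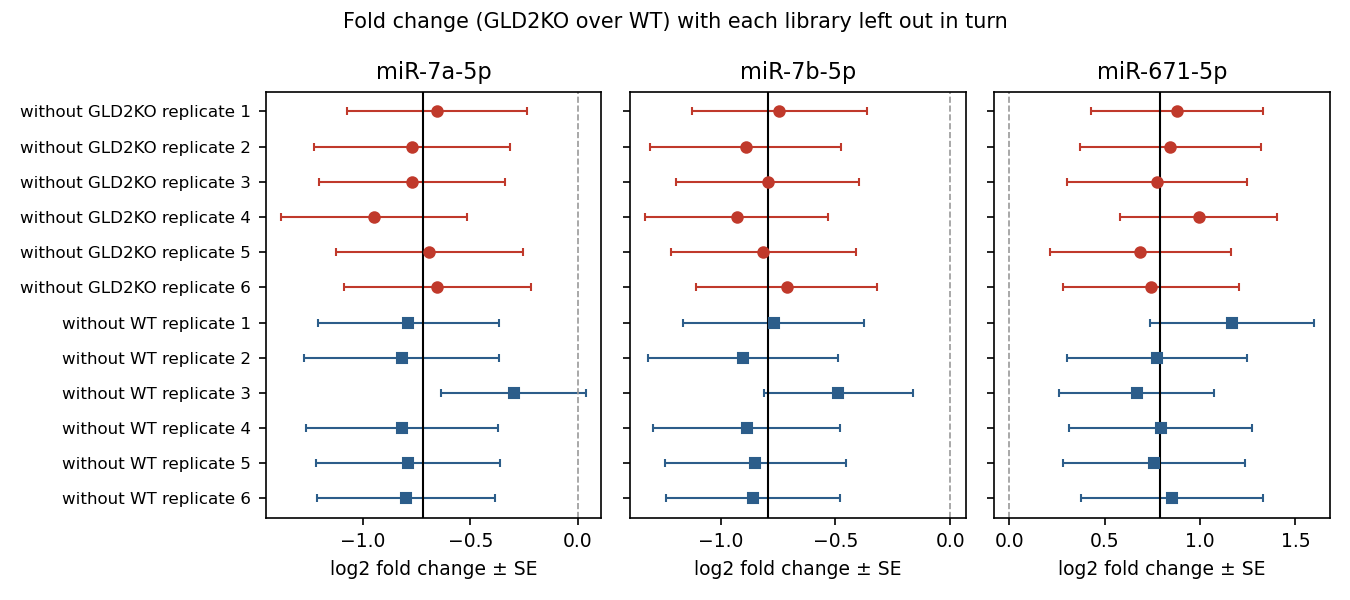
Log2 fold change (GLD2KO over WT) ± SE of the 3 guide strands with each library left out in turn, circles for a GLD2KO and squares for a WT library left out, with the value for all 12 libraries as a solid line and 0 as a dashed line. Leaving out WT replicate 3 gives -0.30 for miR-7a-5p and -0.49 for miR-7b-5p, and leaving out WT replicate 1 gives 1.17 for miR-671-5p.

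A guide strand set against the other strand of its own hairpin needs no library scaling, and decay directed by a target acts on the loaded guide. Of 186 hairpins with enough counts in both arms, 0 (0%) differed in the log2 ratio of the 5p to the 3p strand at an adjusted p under 0.05 in limma, 4 (2.15%) did at an unadjusted p under 0.05, and 0 of the 3 hairpins here did at either. The median difference over all 186 was -0.01, with 90 higher and 96 lower in GLD2KO.

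For miR-7a, with the sum of both 3p strands as the partner, the 5p strand had 5.08, 5.91, 6.24, 7.52, 4.77 and 2.87 times the 3p counts in GLD2KO replicates 1 to 6, and 6.16, 8.01, 26.6, 4.38, 5.34 and 5.48 times in WT replicates 1 to 6. WT replicate 3 stood far above the other 11 libraries, which overlapped between genotypes. Mean log2 ratios were 2.37 ± 0.48 in GLD2KO and 2.89 ± 0.95 in WT, a difference of -0.52 (95% confidence interval -1.68 to 0.64, limma adjusted p = 0.914), and -0.15 without WT replicate 3. Over all 186 hairpins WT replicate 3 had the highest ratio of the 12 libraries for 43 and the lowest for 28, with a median deviation of 0.26 on the log2 scale from the mean of the libraries. GLD2KO replicate 1 had the highest for 23 and the lowest for 31, and GLD2KO replicate 4 the highest for 30 and the lowest for 25.

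For miR-7b the ratio ran from 44.9 to 118 in GLD2KO and from 78.0 to 562 in WT, the highest in WT replicate 3, where the 3p strand had 5 counts. Mean log2 ratios were 6.29 ± 0.53 in GLD2KO and 7.38 ± 1.08 in WT, a difference of -1.09 (interval -2.31 to 0.13, limma adjusted p = 0.914, unadjusted p = 0.0764), rank 11 of 186, and -0.74 without WT replicate 3. For miR-671 the 5p strand had 15.6, 5.62, 9.51, 7.83, 11.3 and 11.5 times the 3p counts in GLD2KO replicates 1 to 6, and 9.30, 4.37, 2.70, 4.09, 3.80 and 7.70 times in WT replicates 1 to 6. Mean log2 ratios were 3.28 ± 0.51 in GLD2KO and 2.28 ± 0.67 in WT, a difference of 1.003 (interval -0.09 to 2.09, limma adjusted p = 0.914, unadjusted p = 0.0693), rank 9 of 186. Of the GLD2KO libraries 4 lay above every WT library. That difference was 1.19 without WT replicate 1 (unadjusted p = 0.0406 in limma) and 0.83 without WT replicate 3.

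**Figure D4:**
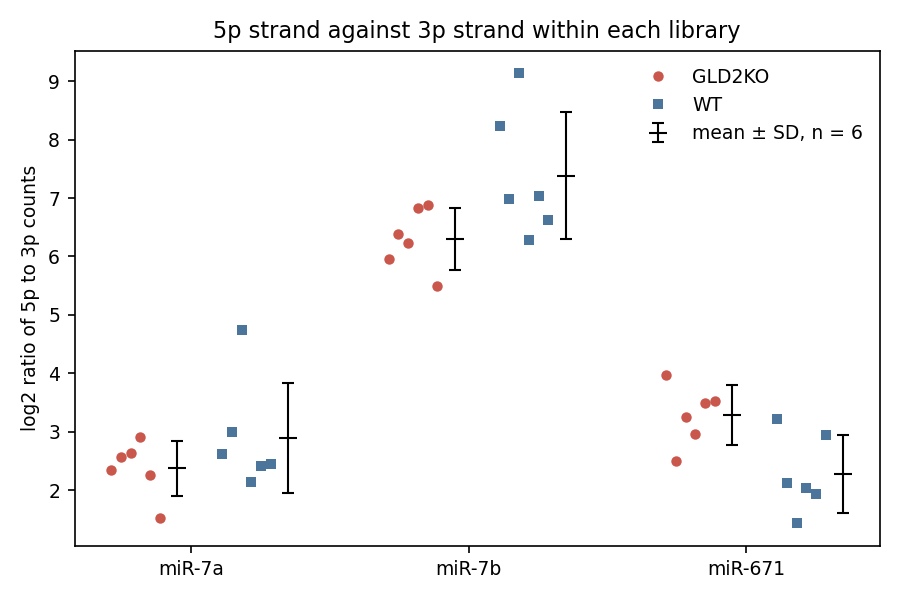
Log2 ratio of the 5p to the 3p strand, in counts, in each library, with circles for GLD2KO, squares for WT and mean ± SD (n = 6) at the right of each group. Means of miR-7a and miR-7b are lower in GLD2KO, at 2.37 against 2.89 and 6.29 against 7.38, and that of miR-671 is higher, at 3.28 against 2.28, with groups that overlap in all 3 hairpins.

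Across the 12 libraries, the levels of miR-7a-5p were correlated with those of both other guide strands. Among the 21 pairs of the 7 strands, 2 had a permutation p that passed a Benjamini-Hochberg adjustment over the pairs. The permutations ignored genotype, so these p values, here and below, also take in differences between the genotypes. Values of r within genotypes or with genotype means subtracted were not tested. The levels of miR-7a-5p and miR-7b-5p, as log2 CPM, correlated with Pearson's r = 0.925 (permutation p = 0.00022, adjusted p = 0.00462) and Spearman's rho = 0.867 (permutation p = 0.00052, adjusted p = 0.00735). With the genotype means subtracted r was 0.903, within genotypes it was 0.906 in GLD2KO and 0.901 in WT (n = 6 each), and without the 2 libraries farthest in miR-7a-5p, GLD2KO replicate 6 and WT replicate 3, it was 0.754. These strands share a seed, and may share reads if reads were not assigned uniquely.

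Levels of miR-7a-5p and miR-671-5p, which come from separate loci and differ in seed, ran in opposite directions. Pearson's r was -0.827 (permutation p = 0.00131, adjusted p = 0.0138) and Spearman's rho -0.853 (permutation p = 0.0007, adjusted p = 0.00735) over the 12 libraries. With genotype means subtracted r was -0.757, and within genotypes it was -0.611 in GLD2KO and -0.850 in WT (n = 6 each). It was -0.634 without WT replicate 3 and -0.544 without GLD2KO replicate 6 and WT replicate 3, so part of the relation rests on those libraries. With CPM from library totals in place of TMM factors, r was -0.528 and no longer passed (permutation p = 0.0795, adjusted p = 0.180). Both levels of a library share its scaling. For miR-7b-5p and miR-671-5p, r was -0.694 (permutation p = 0.0147, adjusted p = 0.103). The pairs that join a guide strand to the 3p strand of its hairpin did not pass, at r = -0.162 for miR-7a-5p and miR-7a-1-3p (permutation p = 0.609, adjusted p = 0.753), r = 0.239 for miR-7a-5p and miR-7a-2-3p (permutation p = 0.448, adjusted p = 0.668), r = -0.638 for the 2 strands of miR-7b (permutation p = 0.0272, adjusted p = 0.143) and r = 0.502 for those of miR-671 (permutation p = 0.0965, adjusted p = 0.278).

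**Figure D5:**
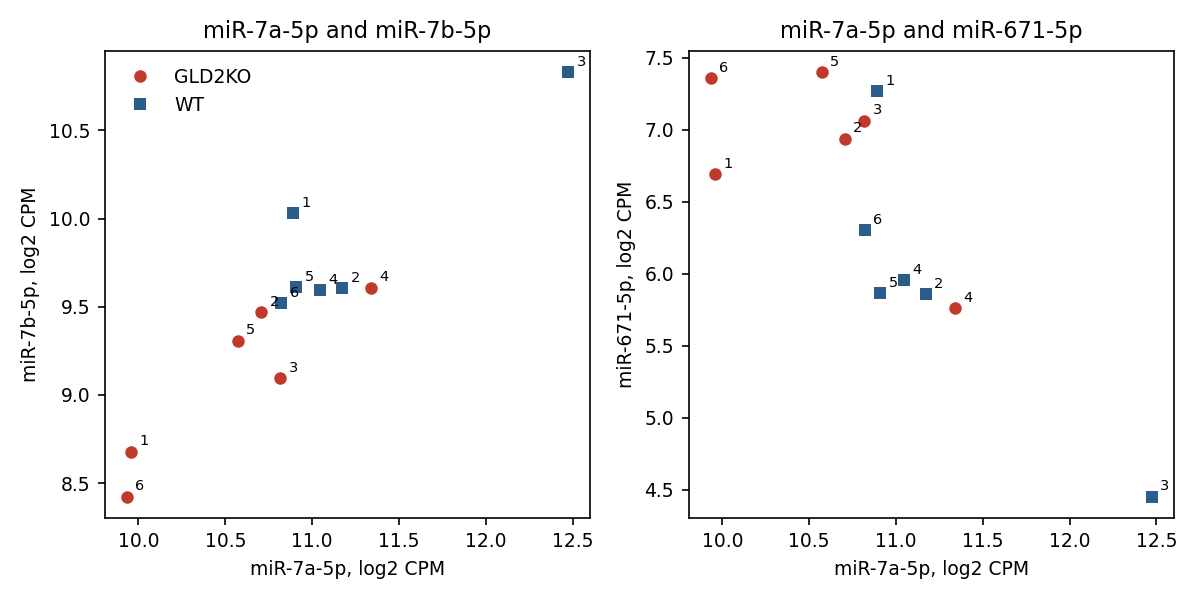
Log2 CPM of miR-7a-5p (x axis) against miR-7b-5p (left panel) and miR-671-5p (right panel) in each library, circles for GLD2KO and squares for WT, numbered by replicate. The left panel rises with r = 0.925 and the right panel declines with r = -0.827, and WT replicate 3 lies at the far end of both.

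The libraries at the ends of these relations also differed in other miRNAs. The endocrine and pituitary marker miR-375-3p did not pass the filter on low counts. It was low throughout, at 2.78 to 32.7 CPM in GLD2KO and 1.15 to 7.07 CPM in WT. Its highest library in each genotype, GLD2KO replicate 4 and WT replicate 3, was also the highest for miR-7a-5p. The order of WT libraries at so few reads is uncertain. WT replicate 3 had the lowest red blood cell sum of all 12 libraries (652 CPM), and among WT libraries the highest sums for oligodendrocyte (40409 CPM), liver and muscle (231 CPM) and epithelial and olfactory markers (182 CPM). GLD2KO replicate 4 had the lowest red blood cell sum of its genotype (1148 CPM). At the low end of miR-7a-5p were GLD2KO replicates 1 (992 CPM) and 6 (977 CPM). Replicate 1 had the highest neuronal (273716 CPM), oligodendrocyte (30583 CPM) and epithelial and olfactory (374 CPM) sums of its genotype. Its choroid plexus and cilia sum (1677 CPM) and its liver and muscle sum (103 CPM) were the lowest of the 12 libraries. Replicate 6 had the highest choroid plexus and cilia sum (24201 CPM). Over all 521 tested miRNAs, WT replicate 3 was the lowest of the 12 libraries for 119 and the highest for 53. GLD2KO replicate 1 was the lowest for 72 and the highest for 100, and GLD2KO replicate 4 the lowest for 62 and the highest for 95. The part that these differences take in the levels of miR-7 and miR-671 was not tested.

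The miRNAs whose level followed miR-7a-5p most closely over the 12 libraries were, by Pearson's r of log2 CPM, let-7c-1-3p (0.916), miR-873a-3p (0.814), miR-499-5p (0.811), miR-15a-5p (0.779) and miR-544-5p (0.706). Closest to miR-671-5p were miR-574-5p (0.850), miR-758-3p (0.795), miR-669a-5p and miR-669p-5p (0.782 each, with the same counts in every library) and miR-666-5p (0.765). In a comparison with 514 other miRNAs for each strand, 0 passed the adjustment, the lowest adjusted permutation p being 0.0811 for miR-7a-5p and 0.108 for miR-671-5p. Without the 2 libraries farthest in miR-7a-5p, GLD2KO replicate 6 and WT replicate 3, r ran from 0.504 for miR-873a-3p to 0.773 for let-7c-1-3p. Without the 2 farthest in miR-671-5p, GLD2KO replicate 5 and WT replicate 3, it was 0.739 for miR-574-5p, 0.513 for miR-669a-5p and miR-669p-5p, 0.389 for miR-666-5p and 0.388 for miR-758-3p. These are the highest of many values and describe these libraries alone.

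Other miRNAs for which target-directed decay, or accumulation without the ubiquitin ligase Zswim8, has been described were listed to set miR-7 beside them. All 10 listed were tested, miR-7a-5p and miR-7b-5p included, and 4 were higher and 6 lower in GLD2KO, with 0 past the adjusted threshold in edgeR and 1, miR-7b-5p, at an unadjusted p under 0.05. Their median log2 fold change was -0.15, beside 0.12 for all 521 tested miRNAs, of which 306 were higher and 215 lower. Without both miR-7 strands, 4 were higher and 4 lower, with a median of -0.03. Negative log2 fold changes were those of miR-29b-3p (-0.51), which the RNA Nrep directs to decay in mouse brain, miR-30b-5p (-0.65), miR-30c-5p (-0.15) and miR-322-5p (-0.16). Positive ones were those of miR-221-3p (0.08) and miR-222-3p (0.40), which the mRNA of BCL2L11 is described to act on in human cells, miR-503-5p (0.61), encoded beside miR-322, and miR-335-3p (0.29). The edgeR adjusted p of each of these 8 was at least 0.978, and the groups overlapped for all of them.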

How the data were processed

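Small RNA was size-selected on a gel from TRIzol-extracted hippocampal RNA, made into barcoded libraries and sequenced on an Illumina HiSeq, per the labels' protocols. The sources give the size range in differing ways. Trimmomatic 0.32, cutadapt 1.3 and the build GRCm38 are named, per the submitters' processing notes. No aligner, counter or rule for shared reads is given in the sources used here. The deposited table holds raw counts per mature miRNA, with no normalization by the authors. It had 1 row that names no miRNA, with 0 counts, which was left out.

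Groups and replicate numbers came from sample titles. The labels give no batch, and describe 6 mice per genotype. Replicate libraries differed far beyond sampling noise (chi-square per degree of freedom of at least 331 in 30 pairs).

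The test of counts was that of edgeR 4.0.16 in R 4.3.3 (TMM, filterByExpr by genotype, glmQLFit, glmQLFTest), which left 521 miRNAs with 99.96% of counts, and p values were adjusted by Benjamini-Hochberg over them (threshold 0.05). Log2 CPM used a prior count of 2. Arm ratios (pseudocount 0.5, both arms at a mean of 10 counts or more) were tested with limma 3.58.1 over 186 hairpins. Correlations used 100000 permutations of all libraries regardless of genotype, and the ratio of guide strands an exact permutation test. Sites and hairpins were read from an annotation and genome of the files' build. The tests were checked on simulated data. Alternatives were DESeq2 1.42.0, limma-voom, other scalings, filters and pseudocounts, a robust fit, the replicate block, and leaving out libraries.

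The strands, the lists (miRNAs of target-directed decay and 7 marker lists) and the tests were chosen with earlier results of these data known. All 7 strands and the whole decay list are named, with the 5 miRNAs most correlated with the most abundant strand of miR-7 and of miR-671. No molecular identifiers are named, so PCR copies cannot be told from separate molecules.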

Additional observations from a re-analysis of the deposited data

Results flagged for a closer look

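In groups of 6 libraries, 26 levels and ratios of these strands were checked for 1 library far from the other 5. For normally distributed values chance gives about 1 in 20, or 1.3. Levels were checked as CPM without a log, to which that rate need not apply. In all 4 were found, all in WT replicate 3 and all involving the miR-7 guide strands, so they are not separate observations. The level of miR-7a-5p was 5688 CPM in that library, while the other 5 WT libraries had 1810 to 2308 CPM. That of miR-7b-5p was 1821 CPM, against 734 to 1045 CPM. Their sum was 7509 CPM, against 2544 to 3086 CPM. For miR-7a the 5p to 3p ratio was, on the log2 scale, 4.74, against 2.13 to 3.00. In that library miR-671-5p was at 21.2 CPM, the lowest of the 12. No GLD2KO library was marked in this way.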

How the results depend on the processing

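Over 22 alternatives for each strand, 0 of 154 fold changes passed the adjusted threshold (lowest adjusted p 0.525, miR-7b-5p in DESeq2), and 0 of 49 arm ratios did (lowest 0.662). Only miR-671-3p, near 0, changed sign, in 10 of 22. A value was counted as reversed where its sign changed and it passed the threshold or moved by more than its error. For correlations a fixed change in r took the place of the error. Over all miRNAs, DESeq2 and limma-voom called 0, and edgeR called 0 under each alternative but 1. With no low-count filter it called 7 of 1325, 0 of them among the 7 strands, and 85 had an unadjusted p under 0.05, against 38 in DESeq2 and 25 as reported. With library totals in place of TMM factors, 4 pairs of strands passed in place of 2. They were miR-7a-5p with miR-7b-5p, and 3 pairs of 3p strands, at r = 0.742 to 0.792, while miR-7a-5p and miR-671-5p (r = -0.528) did not pass. Under the same totals 3 negative correlations that had not passed turned positive, to 0.083 from -0.232 for miR-7a-5p and miR-671-3p, 0.145 from -0.265 for miR-7a-2-3p and miR-671-5p, and 0.371 from -0.105 for miR-7a-2-3p and miR-671-3p. The cause was not tested. Fold changes without 1 library ran from -0.95 to -0.30 for miR-7a-5p, -0.93 to -0.49 for miR-7b-5p and 0.67 to 1.17 for miR-671-5p. Arm ratio differences ran from -0.67 to -0.15 for miR-7a, -1.31 to -0.74 for miR-7b and 0.83 to 1.19 for miR-671.

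Same-numbered libraries did not deviate together (correlations of -0.232 to 0.241, over 0.1 in 2 of 6 pairs, and 1 pair best with its own number). Such a check cannot exclude that the numbers pair the mice, and the labels used for groups and numbers do not say so. With the replicate number as a block, 0 miRNAs were called and 17 had an unadjusted p under 0.05. The blocked log2 fold changes were -0.66 for miR-7a-5p, -0.77 for miR-7b-5p and 0.92 for miR-671-5p, and the block changed no call. The shallowest strands were miR-7b-3p (5 to 34 counts) and miR-671-3p (13 to 62 counts), with SEs of 0.38 and 0.39, beside 0.34 to 0.44 for the other 5 strands.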
